A study of Mus musculus with 12 samples.

Results

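The interleukin-10 axis and the checkpoint ligands were followed as 9 genes in myeloid cells sorted from mouse hind paws. They are Il10 and its receptor chains Il10ra and Il10rb, the interleukin-27 subunits Il27 and Ebi3, the checkpoint ligands Cd274, Pdcd1lg2 and Lgals9, and the signalling inhibitor Socs1. They were chosen by name, with earlier results of these data known. All 9 were found among the 55401 gene IDs of the deposited tables. RNA was measured by 3' mRNA sequencing in CD45+/CD11b+/Ly6G- cells, collected 4 h after the paw of adult mice had received saline, the vehicle, or 1% carrageenan, a seaweed polysaccharide that causes acute inflammation. The Flox groups were FABP5Flox mice, which carry a conditional allele of Fabp5, a fatty acid binding protein gene. The cKO groups were FABP5Flox/LysM-Cre mice, in which the Cre recombinase is expressed under control of the Lyz2 locus, active in the myeloid lineage. Each of the 4 groups (Flox or cKO, saline or carrageenan) held 3 libraries, and 3 or 4 mice were pooled for a library, which is named here by the mouse numbers in its title. Mice with LysM-Cre and no floxed allele were not among the groups, so a difference between genotypes cannot be ascribed to Fabp5 apart from the Cre.

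Interleukin-10 is a cytokine that restrains inflammatory gene expression in macrophages. It binds a ligand-binding chain, IL-10RA, together with a shared chain, IL-10RB, and signals through JAK1, TYK2 and STAT3. Interleukin-27 is a dimer of the products of Il27 and Ebi3 and is known to induce interleukin-10 in T cells. PD-L1, the product of Cd274, and PD-L2, the product of Pdcd1lg2, bind the inhibitory receptor PD-1 on lymphocytes. Galectin-9, the product of Lgals9, is a sugar-binding protein described as a ligand of TIM-3. SOCS1 blocks JAK kinases and limits the response to interferons, which are also known inducers of Cd274.

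Of the 9 members, 5 matched the promoter table used, and their promoters are shown because these are the ligands, the inhibitor and the interleukin-27 subunit whose values after carrageenan are described next. The sequences are from RefSeq on GRCm38.p6, in the direction of each gene, from 250 bases before the transcription start to 30 bases after it. Capitals mark matches on either strand to the motifs searched, in windows that ran to 50 bases after the start.
Socs1: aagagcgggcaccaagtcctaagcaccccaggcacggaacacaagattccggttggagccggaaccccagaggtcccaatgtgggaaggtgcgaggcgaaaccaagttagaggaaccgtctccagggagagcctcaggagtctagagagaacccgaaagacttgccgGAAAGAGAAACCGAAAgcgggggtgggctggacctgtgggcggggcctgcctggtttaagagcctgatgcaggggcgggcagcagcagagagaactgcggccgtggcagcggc
Lgals9: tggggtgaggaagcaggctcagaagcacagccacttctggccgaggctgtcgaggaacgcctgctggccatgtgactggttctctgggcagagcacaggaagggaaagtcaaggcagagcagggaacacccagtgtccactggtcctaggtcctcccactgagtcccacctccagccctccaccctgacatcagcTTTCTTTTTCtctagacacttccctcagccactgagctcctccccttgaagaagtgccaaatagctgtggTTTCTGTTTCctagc
Ebi3: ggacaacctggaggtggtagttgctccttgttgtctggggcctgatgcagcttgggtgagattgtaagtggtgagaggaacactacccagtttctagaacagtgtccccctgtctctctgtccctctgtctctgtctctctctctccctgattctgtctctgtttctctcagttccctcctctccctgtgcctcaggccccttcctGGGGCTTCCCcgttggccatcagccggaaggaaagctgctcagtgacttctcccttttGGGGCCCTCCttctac
Pdcd1lg2: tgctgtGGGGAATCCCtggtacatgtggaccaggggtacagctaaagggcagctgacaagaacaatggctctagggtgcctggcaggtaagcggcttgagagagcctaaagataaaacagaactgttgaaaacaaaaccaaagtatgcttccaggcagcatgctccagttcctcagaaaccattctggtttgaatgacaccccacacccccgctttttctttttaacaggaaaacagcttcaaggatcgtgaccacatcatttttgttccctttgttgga
Cd274: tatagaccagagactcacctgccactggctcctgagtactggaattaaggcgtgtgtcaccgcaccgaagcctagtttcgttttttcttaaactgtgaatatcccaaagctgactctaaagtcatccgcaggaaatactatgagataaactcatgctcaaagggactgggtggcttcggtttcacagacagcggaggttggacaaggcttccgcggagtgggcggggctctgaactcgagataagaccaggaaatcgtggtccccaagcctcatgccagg
The windows lie at chr16:10785507-10785786 (minus strand), chr11:78984895-78985174 (minus), chr17:55952373-55952652 (plus), chr19:29410669-29410948 (plus) and chr19:29367188-29367467 (plus). The core of the interferon-stimulated response element (GAAA, any 2 bases, GAAA) was found in the Socs1 window in 2 overlapping copies and in the Lgals9 window in 2 separate copies on the opposite strand. It occurs in 3.44% of 32851 RefSeq windows of the same length. The NF-kB consensus, found in 5.80% of the windows, matched 2 times in the Ebi3 window and 1 time in the Pdcd1lg2 window. The gamma-activated site TTCNNNGAA (8.30% of all windows), the AP-1 site TGANTCA (7.81%) and the cyclic AMP response element TGACGTCA (1.79%) had no match in any of the 5 windows. The Cd274 window matched none of the motifs. A match describes letters only and says nothing of binding.

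Levels are given as normalized counts, the deposited values put on a common scale for the 12 libraries, unless the deposited scale is named. Reads on genes ranged over 111925 to 637238 in Flox saline, 220463 to 994161 in Flox carrageenan, 1145606 to 2987015 in cKO saline and 508407 to 2627107 in cKO carrageenan. The geometric mean depth was 4.99 times as high in cKO as in Flox, so depth and genotype cannot be told apart. A single read was worth 5.39 normalized counts in the shallowest library, Flox saline 1-3, and 0.248 in the deepest. For a member with 0 reads in the shallowest library, the exact 95% counting interval of its level reached 19.9. All 7 markers of the sorted myeloid cells had reads in every group, and Ly6g had at most 3 reads in a group. Fabp5, the targeted gene, was at 6.94 ± 3.58 in cKO and 20.5 ± 14.4 in Flox after saline (mean ± SD, n = 3 libraries, limma adjusted p = 0.683). After carrageenan it was at 13.2 ± 8.44 and 57.4 ± 33.6 (adjusted p = 0.497), where the groups did not overlap. Lyz2, the locus of the Cre, was at 2727 ± 142 in cKO and 4249.6 ± 1200.1 in Flox after saline (limma adjusted p = 0.683). After carrageenan it was at 2468 ± 831 and 5321 ± 727 (adjusted p = 0.497), where the groups did not overlap. The Flox saline 1-3 library stood apart by its depth, and the cKO carrageenan 9-12 library by its cell type markers. The latter was also the shallowest of its group, with 508407 reads on genes against 2271231 and 2627107.

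**Figure D1:**
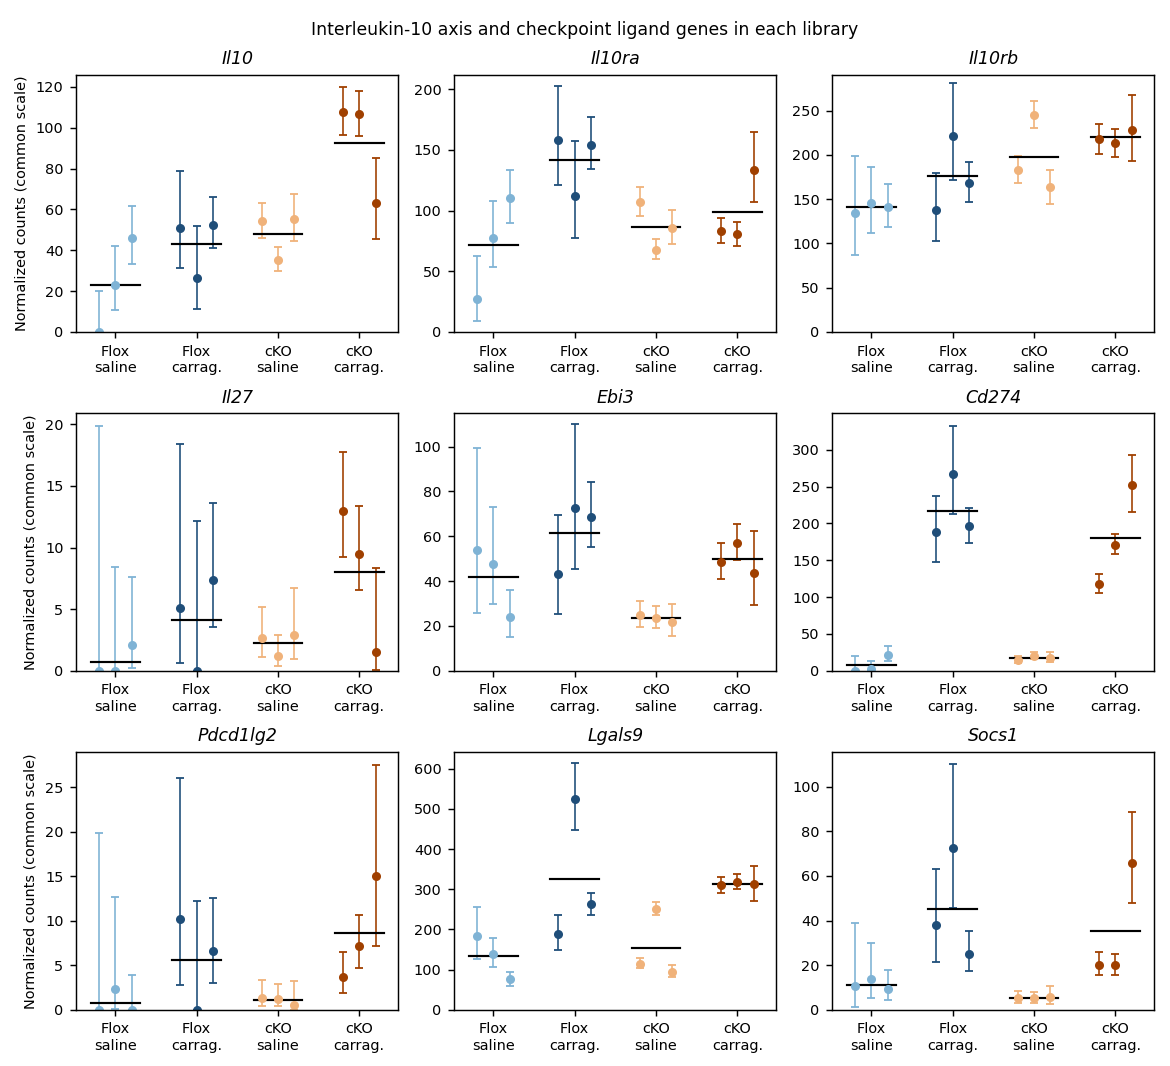
Normalized counts on the common scale of the 9 members in each of the 12 libraries (points), with exact Poisson 95% intervals for counting error (bars) and the group mean (black line). Cd274 lay at 0 to 22.00 in Flox saline and 15.2 to 20.3 in cKO saline, and at 118 or more in every carrageenan library.

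Carrageenan was set against saline within each genotype, to ask how these genes responded to inflammation. The gene of PD-L1 changed most: Cd274 rose in both genotypes, although its call in cKO was lost in 12 of 22 alternative settings. Socs1 rose in cKO cells in the unpaired fit reported, but did not pass where pools were paired by mouse numbers. Its difference in Flox cells did not pass the threshold. Il10, its receptor chains, the interleukin-27 subunits, Pdcd1lg2 and Lgals9 did not pass in either genotype, although their log2 fold changes were above 0 in both. The threshold was a limma adjusted p under 0.05 over 10194 genes, and all 9 members passed the filter on low values (at least 5 in at least 3 libraries). Pdcd1lg2 and Il27 reached that value in 4 carrageenan libraries each and in no saline library, so they entered the test only through the treatment in which they were higher, and their differences are given as descriptions.

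Among the ligands of PD-1, Cd274 (ENSMUSG00000016496, chr19:29367455-29388095, plus strand) was at 0, 2.28 and 22.00 in the Flox saline libraries (0, 1 and 21 reads), and at 188, 268 and 196 in Flox carrageenan (74, 81 and 266 reads). The cKO libraries gave 15.2, 20.3 and 17.8 in saline and 118, 171 and 252 in carrageenan. Every carrageenan library was above every saline library of its genotype. The log2 fold change was 5.67 ± 0.77 (± SE) in Flox (adjusted p = 0.000964) and 3.21 ± 0.77 in cKO (adjusted p = 0.0381). Without Flox saline 1-3, which held no Cd274 read, the Flox value was 4.63. The ratio of pooled reads was 14.7 (95% counting interval 9.61 to 23.8) in Flox and 8.66 (95% counting interval 7.33 to 10.3) in cKO. In Flox the call held in all 22 alternative settings run (adjusted p at most 0.0117). In cKO it was lost in 12 of 22, with adjusted p up to 0.186, while the log2 fold change stayed between 2.94 and 3.48.

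Pdcd1lg2 (ENSMUSG00000016498, chr19:29410919-29471161, plus strand) starts 22824 bases beyond the end of Cd274 and was read far more rarely. It had 0, 1 and 0 reads in Flox saline and 4, 0 and 9 in Flox carrageenan. In cKO it had 4, 5 and 1 reads in saline and 11, 25 and 10 in carrageenan. The cKO groups, at 1.32, 1.24 and 0.575 normalized counts in saline and 3.65, 7.20 and 15.00 in carrageenan, did not overlap, while the Flox groups did. The log2 fold change was 2.07 ± 0.90 in cKO (adjusted p = 0.384) and 1.57 ± 0.90 in Flox (adjusted p = 0.313). These are descriptions, since Pdcd1lg2 reached the filter value in carrageenan libraries only. The ratio of pooled reads was 5.67 (95% counting interval 2.82 to 12.6) in cKO and 10.01 (95% counting interval 1.50 to 425) in Flox. The antisense gene A930007I19Rik overlaps Pdcd1lg2 and had 27 reads in all libraries, and since the use of strand in counting is not stated, Pdcd1lg2 values are uncertain.

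Lgals9 (ENSMUSG00000001123, chr11:78962974-78984946, minus strand) was at 183, 139 and 75.4 in Flox saline and 188, 525 and 262 in Flox carrageenan. The cKO libraries gave 115, 252 and 94.8 in saline and 310.2, 318 and 312 in carrageenan. The groups did not overlap in either genotype, by a narrow margin in Flox, where the 4-7 library stood above the other carrageenan libraries. The log2 fold change was 1.24 ± 0.42 in Flox (adjusted p = 0.0887) and 1.16 ± 0.42 in cKO (adjusted p = 0.233). In Flox, Lgals9 passed with edgeR (1.36, adjusted p = 0.0463), with DESeq2 (1.33, adjusted p = 0.0443) and without Flox saline 1-3 (1.52, adjusted p = 0.0465).

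Socs1 (ENSMUSG00000038037, chr16:10782240-10785536, minus strand), the JAK inhibitor, was at 10.8, 13.7 and 9.43 in Flox saline (2, 6 and 9 reads) and 38.2, 72.7 and 25.1 in Flox carrageenan. In cKO it was at 5.29, 5.20 and 5.75 in saline and 20.3, 19.9 and 66.00 in carrageenan. Carrageenan libraries lay above saline libraries in both genotypes, and the cKO carrageenan 9-12 library was far above the other libraries of its group. Socs1 gave a log2 fold change of 2.27 ± 0.56 in cKO (adjusted p = 0.0440) and 1.80 ± 0.56 in Flox (adjusted p = 0.0668). The cKO call was lost in 12 of 22 alternatives, among them the fit that pairs pools by mouse numbers (replicate block, adjusted p = 0.0536). Without cKO carrageenan 9-12 the value was 1.72 (adjusted p = 0.257). In Flox the gene passed in 4 of 22 alternatives, DESeq2 among them (1.96, adjusted p = 0.0320).

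Il10 (ENSMUSG00000016529, chr1:131019845-131024974, plus strand) was at 0, 22.8 and 46.1 in Flox saline (0, 10 and 44 reads) and 50.9, 26.4 and 52.4 in Flox carrageenan. In cKO it was at 54.2, 35.1 and 55.2 in saline and 108, 107 and 63.00 in carrageenan. The Flox groups overlapped and the cKO groups did not, and the lowest cKO carrageenan value was that of the 9-12 library. The log2 fold change was 2.03 ± 0.97 in Flox (adjusted p = 0.226) and 0.91 ± 0.97 in cKO (adjusted p = 0.949). The Flox value was 0.34 without Flox saline 1-3 and 3.12, with an adjusted p of 0.0432, without Flox saline 8-10. The ratio of pooled reads was 1.41 (95% counting interval 1.00 to 2.01) in Flox and 2.25 (95% counting interval 1.99 to 2.55) in cKO.

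Of the receptor chains, Il10ra (ENSMUSG00000032089, chr9:45253837-45269149, minus strand), which binds the ligand, was at 26.95, 77.5 and 110.0 in Flox saline and 158, 112 and 154 in Flox carrageenan. In cKO it was at 107, 67.8 and 85.6 in saline and 83.04, 80.3 and 133 in carrageenan, the highest of these in the 9-12 library. The log2 fold change was 1.17 ± 0.42 in Flox (adjusted p = 0.108), where the groups did not overlap, and 0.17 ± 0.42 in cKO (adjusted p = 0.997), where they did. The Flox value was 0.59 without Flox saline 1-3, and it passed without Flox saline 8-10 (1.59, adjusted p = 0.0265). Il10rb (ENSMUSG00000022969, chr16:91406164-91425834, plus strand), a chain that other cytokine receptors also use, was at 135 to 146 in Flox saline, 137 to 221 in Flox carrageenan, 163 to 246 in cKO saline and 213 to 228 in cKO carrageenan. Its log2 fold changes had the narrowest intervals of the 9 members, 0.29 (95% confidence interval -0.22 to 0.80) in Flox and 0.17 (-0.34 to 0.68) in cKO.

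Of the interleukin-27 subunits, Ebi3 (ENSMUSG00000003206, chr17:55952640-55957022, plus strand) was at 53.9, 47.8 and 24.1 in Flox saline and 43.3, 72.7 and 68.7 in Flox carrageenan. In cKO it was at 24.8, 23.5 and 21.8 in saline and 48.5, 57.01 and 43.5 in carrageenan. The cKO groups did not overlap and the Flox groups did. Ebi3 gave a log2 fold change of 1.05 ± 0.36 in cKO (adjusted p = 0.194) and 0.59 ± 0.36 in Flox (adjusted p = 0.348). In cKO it passed with edgeR (1.16, adjusted p = 0.0273), with DESeq2 (1.10, adjusted p = 0.00939) and in a fit of the 2 cKO groups alone (adjusted p = 0.0252). Il27 (ENSMUSG00000044701, chr7:126589010-126594941, minus strand), the gene of the other subunit, had 0, 0 and 2 reads in Flox saline and 2, 0 and 10 in Flox carrageenan. It had 8, 5 and 5 reads in cKO saline and 39, 33 and 1 in cKO carrageenan, the single read being that of the 9-12 library. Groups overlapped in both genotypes, and the log2 fold change was 1.18 ± 0.91 in cKO (adjusted p = 0.846) and 1.35 ± 0.91 in Flox (adjusted p = 0.394). These are descriptions, since Il27 reached the filter value in carrageenan libraries only. The ratio of pooled reads was 4.99 (95% counting interval 2.95 to 8.89) in cKO and 4.62 (95% counting interval 1.03 to 42.5) in Flox. Apobr overlaps Il27 on the other strand and had 407 reads in all libraries, so Il27 values are uncertain too.

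**Figure D2:**
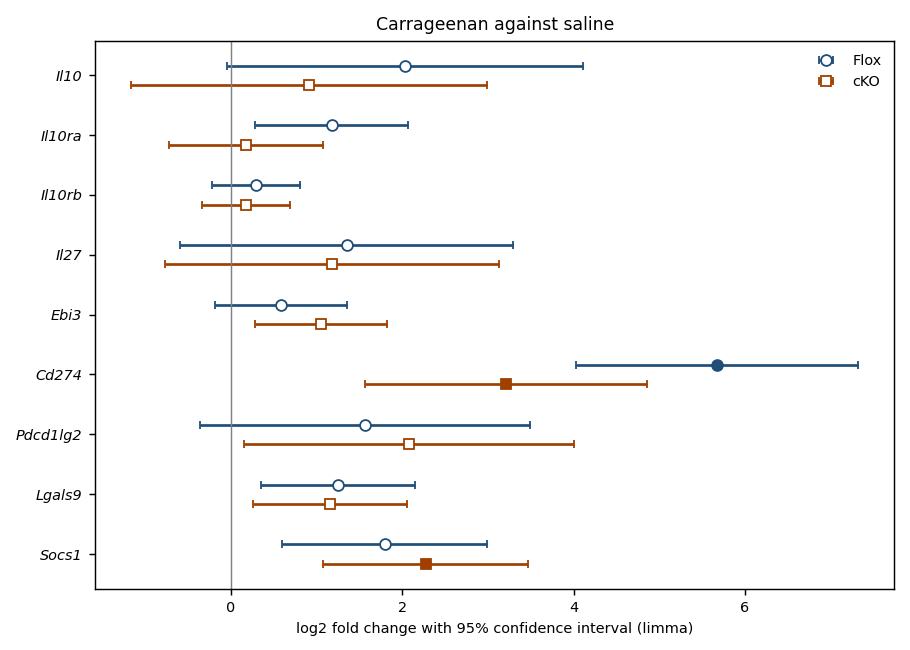
Log2 fold change of carrageenan over saline for each member in Flox (circles) and cKO (squares), with 95% confidence intervals from limma; filled symbols passed an adjusted p under 0.05. Cd274 is filled in both genotypes and Socs1 in cKO.

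The members were chosen with earlier results of these data known, so the counts and medians that follow are descriptions. In counts, 1 of 9 members rose in Flox cells, where 4.45% of all genes tested rose, and 2 of 9 rose in cKO cells, where 2.12% did. With the replicate block by mouse numbers, 1 member, Cd274, passed in cKO (adjusted p = 0.0442). No member fell, while 2.78% of all genes fell in Flox and 0.559% in cKO. Carrageenan groups lay wholly above saline groups for 4 members in Flox (Il10ra, Cd274, Lgals9 and Socs1), against 13.1% of all genes. They did so for 6 members in cKO (Il10, Ebi3, Cd274, Lgals9, Socs1 and Pdcd1lg2, the last at the filter value in carrageenan only), against 12.7% of all genes. Over the 7 members that passed the filter on their saline libraries alone, which leaves out Il27 and Pdcd1lg2, the median log2 fold change was 1.24 in Flox and 1.05 in cKO, against 0.10 and -0.07 over all genes tested.

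The genotypes were then set against each other within a treatment, on the deposited scale and with the same libraries, to ask whether these genes differ when Fabp5 is targeted. No member passed in saline, where 7 of 9 were tested (limma adjusted p at least 0.683), or in carrageenan, where all 9 were (at least 0.497). By limma 0 of 9371 genes passed in saline and 0 of 9151 in carrageenan (0% in each), while 5.42% and 9.8% had an unadjusted p under 0.05. On whole reads edgeR called 0 genes in either treatment, and DESeq2 called 22 in saline and 7 in carrageenan, none of them a member. In carrageenan DESeq2 left 6742 genes without an adjusted p. Il27, Ebi3, Pdcd1lg2 and Socs1 were among these and could not be called.

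Il10 had the lowest p of the members after carrageenan. Its deposited values were 108, 106 and 62.5 in the cKO libraries and 50.7, 26.2 and 51.8 in the Flox libraries. Each cKO library was above each Flox library, and the log2 fold change was 1.11 ± 0.35 (95% confidence interval 0.32 to 1.90, adjusted p = 0.497). It was the 1 member of 9 whose cKO group lay wholly above, against 8.87% of genes, and no member's lay wholly below, against 6.19%. Over 14 alternatives the value stayed between 0.79 and 1.36, with an adjusted p of at least 0.0666. The authors' deposited table gives Il10 a log2 fold change of 0.90 with a standard error of 0.33 and an adjusted p of 0.321. In saline the deposited values of Il10 were 57.99, 38.03 and 59.7 in cKO and 0, 24.3 and 50.1 in Flox, which overlap. The saline log2 fold change of 2.25 ± 1.27 was 0.53 without Flox saline 1-3.

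After carrageenan the receptor chain Il10ra had deposited values of 83.4, 79.7 and 132 in cKO and 157, 111 and 152 in Flox, which overlap (-0.53 ± 0.28, adjusted p = 0.520). Il10rb was at 211 to 226 in cKO and 137 to 219 in Flox (0.35, 95% confidence interval -0.18 to 0.89). Cd274 was at 118, 169.9 and 249.9 in cKO and 188, 265 and 194 in Flox (-0.31, -0.98 to 0.36). The interval of Cd274 was wider in saline, at 2.19 (-0.33 to 4.70). That saline value was 1.12 without Flox saline 1-3, which held no Cd274 read. The ratio of pooled reads of Cd274 in saline was 1.30 (95% counting interval 0.83 to 2.14). Lgals9 was at 309 to 315 in cKO and 188 to 520.3 in Flox (0.09, -0.66 to 0.84), and Ebi3 differed by -0.27 (-0.94 to 0.40). The intervals of Pdcd1lg2 (-1.24 to 3.14) and Il27 (-1.37 to 3.27) were wider. Socs1 differed by -0.44 (-1.62 to 0.73), and by -0.99 without cKO carrageenan 9-12.

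In saline Socs1 was the 1 member of 7 tested whose cKO group lay wholly below Flox, at deposited values of 5.66, 5.62 and 6.22 against 10.9, 14.6 and 10.2 (-0.90 ± 0.60, adjusted p = 0.683). Groups lay wholly below for 5.23% of genes. Il10rb was the 1 member wholly above, at 196, 266 and 177 against 137, 156 and 154 (0.50 ± 0.25, adjusted p = 0.683), as 10.4% of genes were. Ebi3 was at 26.5, 25.4 and 23.6 in cKO and 54.6, 51.04 and 26.2 in Flox, overlapping at a single Flox library (-0.71 ± 0.40). Il10ra (0.50 ± 0.51) and Lgals9 (0.20 ± 0.44) overlapped more widely. Il27 and Pdcd1lg2 missed the filter in saline, with 18 and 10 reads in cKO and 2 and 1 in Flox.

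**Figure D3:**
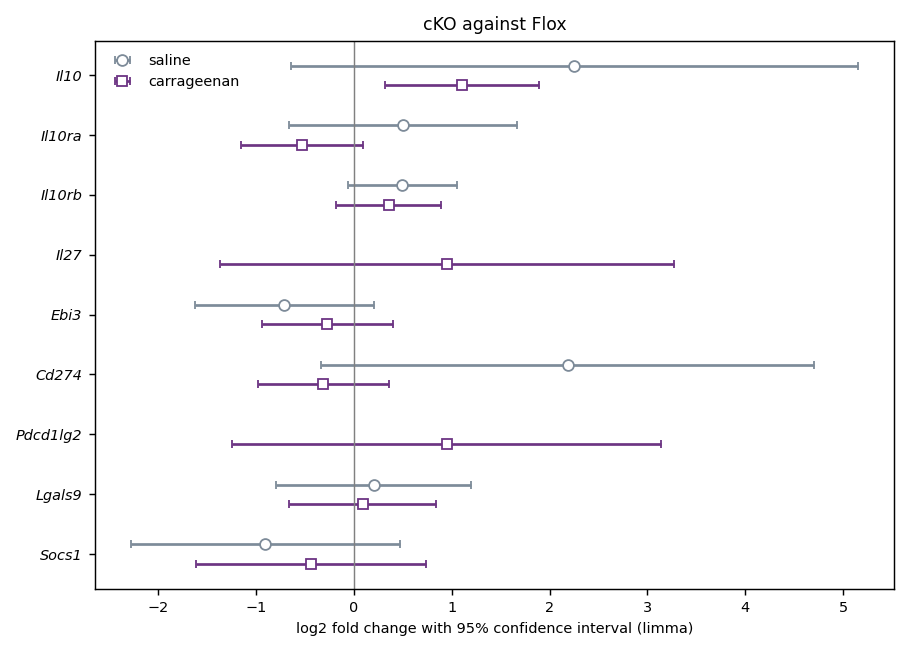
Log2 fold change of cKO over Flox on the deposited scale in saline (circles) and carrageenan (squares), with 95% confidence intervals from limma. All symbols are open because no member passed; Il27 and Pdcd1lg2 were not tested in saline.

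Whether the genotype effect differed between treatments was tested as an interaction over the 12 libraries. No member passed (limma adjusted p at least 0.967), nor did any of 10243 genes (0%, with 2.38% at an unadjusted p under 0.05; edgeR and DESeq2 also called 0). For Cd274 the log2 value of cKO over Flox was lower in carrageenan than in saline, with a difference of -2.50 (95% confidence interval -4.88 to -0.11). This was -1.43 without Flox saline 1-3, -0.82 with edgeR and -0.89 with DESeq2. For Il10 it was -1.15 (-4.15 to 1.86), and 0.58 without Flox saline 1-3. The other 7 members lay between -1.03 (Il10ra) and 0.47 (Pdcd1lg2).

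Lists of related genes, also chosen with earlier results of these data known, describe what moved around the members. Over all genes tested, 4.45% rose and 2.78% fell in Flox, and 2.12% rose and 0.559% fell in cKO. Of 9 genes known to respond to interleukin-10 in mouse macrophages, 6 rose and 0 fell in Flox, and 6 rose and 0 fell in cKO. Il1rn, which encodes the interleukin-1 receptor antagonist, rose from 147 ± 109.7 to 2989 ± 499 in Flox (4.57 ± 0.44) and from 176 ± 68.96 to 2891 ± 909 in cKO (4.06 ± 0.44). Socs3, an inhibitor induced through STAT3, rose from 458 ± 51.2 to 1272 ± 159.9 in Flox (1.47 ± 0.23) and from 366 ± 72.9 to 1302 ± 153 in cKO (1.84 ± 0.23). The transcription factor gene Nfil3 rose in both (2.34 ± 0.44 in Flox and 1.91 ± 0.44 in cKO). Ddit4 passed in Flox (3.67 ± 0.95) and Etv3 in cKO (1.18 ± 0.28). The list median was 1.39 in Flox and 1.52 in cKO, against 0.10 and -0.07 over all genes tested. Several of these genes are known to respond to other inflammatory signals as well. Of 5 receptor signalling genes, 2 rose and 0 fell in Flox (Socs3 among them) and 2 rose and 0 fell in cKO (Socs3 and Stat3). Stat3, the main transducer of the receptor, rose in cKO from 277 ± 30.1 to 534 ± 21.6 (0.95 ± 0.23) and gave 0.74 ± 0.23 in Flox (adjusted p = 0.0668).

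Of 10 regulators of Il10 transcription, 4 rose and 1 fell in Flox (4.45% and 2.78% of all genes tested). In cKO 3 rose and 1 fell (2.12% and 0.559% of all genes tested). Maf, a transcription factor that activates Il10, fell from 689.6 ± 147 to 214 ± 57.7 in Flox (-1.70 ± 0.27) and from 883 ± 189.7 to 305 ± 50.8 in cKO (-1.52 ± 0.27). Maf is also among the 10 resident macrophage markers summed below. Of these 10, 9 fell in Flox and 4 in cKO (2.78% and 0.559% of all genes tested). Prdm1, which encodes BLIMP-1, rose from 14.9 ± 13.00 to 75.9 ± 4.60 in Flox (3.24 ± 0.86). Bhlhe40, a repressor of Il10 in mouse T cells, rose in both (1.04 ± 0.26 in Flox and 1.17 ± 0.26 in cKO), and Nfkb1 in cKO (1.34 ± 0.32). Of 9 other genes of the interleukin-10 family and its receptors, Il20rb alone passed the filter on low values, and its test was not passed (adjusted p = 0.798 in Flox and 0.997 in cKO). Of 8 genes of the interleukin-12 family and its receptors, 2 were tested. Il12rb2, a chain of the interleukin-12 receptor, had 0 reads in Flox saline and 13 in Flox carrageenan, where it passed (adjusted p = 0.0111, although it reached the filter value in carrageenan libraries only), and 10 and 24 reads in the cKO groups, where it did not.

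Of 16 genes of the interferon receptor pathway, 14 were tested. Of these, 7 rose and 0 fell in Flox (4.45% and 2.78% of all genes tested). In cKO 3 rose and 0 fell (2.12% and 0.559% of all genes tested). Jak2, a kinase of the interferon gamma receptor, rose from 80.6 ± 27.7 to 272 ± 20.8 in Flox (1.80 ± 0.27) and from 54.6 ± 8.27 to 204 ± 11.5 in cKO (1.89 ± 0.27). Irf7 rose in Flox (4.82 ± 0.92), as did Ifngr2 (1.05 ± 0.24), a chain of the receptor. Stat2 and Irf9, which act together below the type I receptor, rose in both genotypes, Stat2 by 1.75 ± 0.44 in Flox and 2.23 ± 0.44 in cKO and Irf9 by 1.31 ± 0.34 in Flox and 1.45 ± 0.34 in cKO. Ifng itself had 0 reads in Flox saline, 8 in Flox carrageenan, 0 in cKO saline and 1 in cKO carrageenan, and missed the filter.

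Of 14 other checkpoint and costimulatory genes, mostly ligands, 10 were tested. Of these, 2 rose and 1 fell in Flox (4.45% and 2.78% of all genes tested). In cKO 1 rose and 0 fell (2.12% and 0.559% of all genes tested). Cd40, the gene that rose in cKO, encodes an activating receptor of antigen-presenting cells and not a ligand. It rose from 86.3 ± 14.1 to 199.9 ± 48.2 in Flox (1.19 ± 0.27) and from 55.3 ± 12.7 to 151 ± 20.9 in cKO (1.45 ± 0.27). Cd80, whose product also binds PD-L1, rose in Flox from 36.3 ± 8.07 to 104 ± 42.8 (1.44 ± 0.41). Vsir, which encodes the checkpoint protein VISTA, fell in Flox from 234 ± 36.5 to 99.3 ± 21.4 (-1.24 ± 0.24) and gave -0.55 ± 0.24 in cKO (adjusted p = 0.405). Of 10 checkpoint receptors 5 were tested and none passed. Havcr2, the gene of TIM-3, was at 33.4 ± 4.77 in Flox saline and 54.1 ± 6.14 in Flox carrageenan (adjusted p = 0.297), and Btla gave 2.36 ± 1.12 in cKO (adjusted p = 0.468). Pdcd1, which encodes PD-1, had 1 read in the 12 libraries together. Of 7 other galectins 5 were tested, and Lgals4 fell in Flox, from 20 reads in saline to 3 in carrageenan (-3.48 ± 0.78). Between genotypes Lgals4 passed the filter on low values in saline and missed it in carrageenan. Its fall is therefore a description, of a gene that passed the filter in the treatment in which it was higher. No galectin of this list passed in cKO, where Lgals8 had the smallest p (0.71 ± 0.33, adjusted p = 0.465). Of 7 other SOCS family genes, 2 rose and 0 fell in Flox, and 2 rose and 0 fell in cKO, Socs3 and Cish each time. Cish, an inhibitor of STAT5 signalling, went from 29.1 ± 14.8 to 115 ± 36.2 in Flox (2.03 ± 0.44) and from 10.9 ± 2.64 to 50.4 ± 18.05 in cKO (2.08 ± 0.44). No gene of any of these lists passed between genotypes in either treatment or in the interaction by limma.

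**Figure D4:**
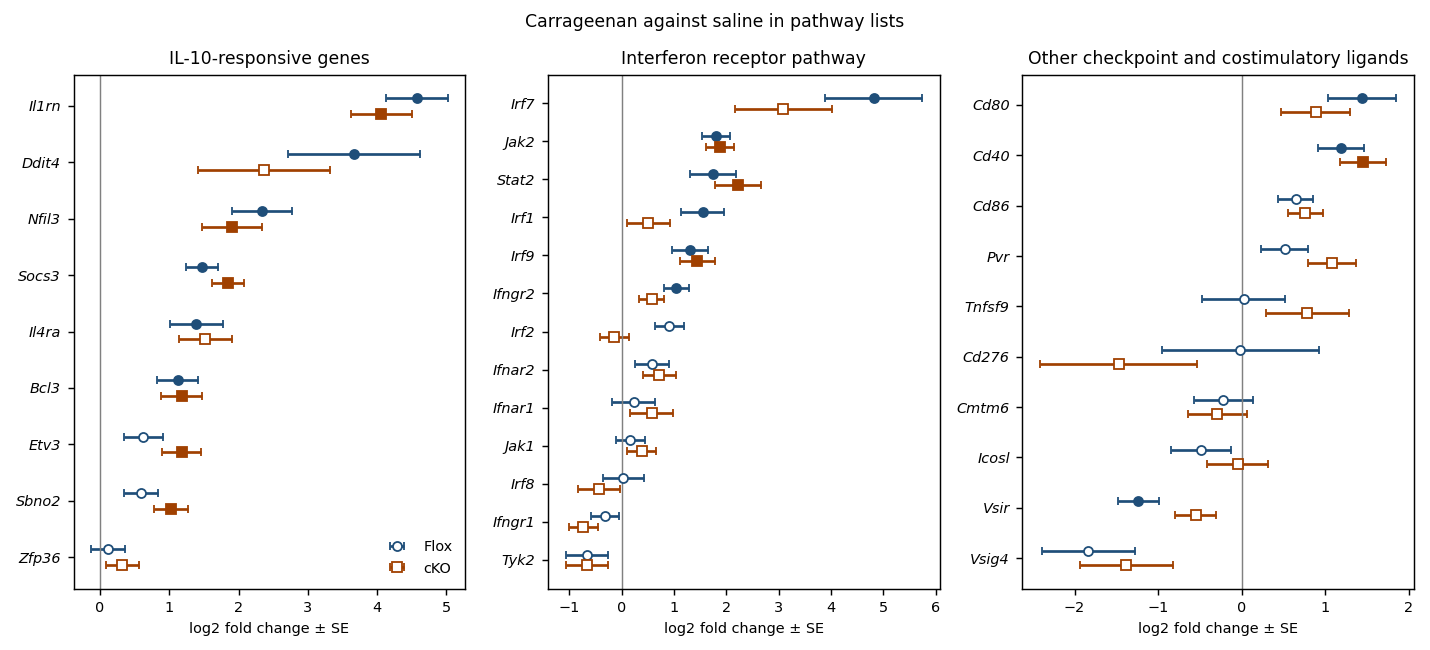
Log2 fold change ± SE of carrageenan over saline for tested genes of 3 lists in Flox (circles) and cKO (squares); filled symbols passed an adjusted p under 0.05. Il1rn lies at 4.57 in Flox and 4.06 in cKO, and Vsir is the filled symbol below 0.

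Markers of cell types moved with treatment, and in bulk libraries fewer cells of a type and less RNA per cell cannot be told apart. The summed level of 10 resident macrophage markers was 8037 to 11647 in Flox saline and 2534 to 3431 in Flox carrageenan, and 11421 to 14571 and 3376 to 6637 in the cKO groups. The sum of 8 inflammatory monocyte markers was 941 to 1765 and 5507 to 7465 in the Flox groups, and 788 to 1419 and 2371 to 8118 in the cKO groups. The sum of 10 neutrophil markers was 21.6 to 71.2 and 386 to 701 in Flox, and 18.3 to 31.6 and 137 to 679 in cKO, with Camp and Ngp at 0 in every group. Dendritic cell markers summed to 172 to 359 and 555 to 604 in Flox, and to 143 to 217 and 411 to 446 in cKO. These markers did not move as 1 set. Of 6 tested, 1 rose in Flox and 0 in cKO (4.45% and 2.12% of all genes tested). The log2 fold change was above 0 for 4 of the 6 in each genotype. It was below 0 for Flt3 (-0.11 in Flox and -0.68 in cKO) and Zbtb46 (-0.53 and -1.53), which did not pass. The part of these cell types in the rises of Cd274 and Socs1 was not tested. The cKO carrageenan 9-12 library had the lowest resident macrophage sum of its group (3376, against 6637 and 6121). It also had the highest monocyte sum (8118, against 2371 and 5457) and neutrophil sum (679, against 137 and 195). Among the members, the same library was the highest of its group in Cd274, Socs1, Il10ra, Il10rb and Pdcd1lg2 and the lowest in Il10, Il27 and Ebi3. Some of these ranks lay within counting error. Its 95% counting interval for Il10rb, 193 to 267, held the values of the other libraries of its group (218 and 213). So did that for Ebi3, 29.1 to 62.5 (against 48.5 and 57.01). Depth went with these ranks as well, since the library was the shallowest of its group.

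Lymphocyte markers were low. The sum of 9 T cell markers was 0 to 44.8 over the 12 libraries, with Cd3d, Cd8a and Foxp3 at 0 in every group, and that of 5 B cell markers 0 to 5.09, with Cd79a at 0. The 5 natural killer cell markers summed to 12.7 to 33.03 in Flox carrageenan, mostly Gzma (20.2 ± 11.2), and to at most 2.10 in a library of the other groups. Mast cell and basophil markers summed to 0 to 27.9 and eosinophil markers to 0 to 8.64. Non-immune paw cell markers summed to 135 to 526 in Flox saline, 697 to 929 in Flox carrageenan, 547 to 911 in cKO saline and 695 to 904 in cKO carrageenan. Their part in the values of the members was not tested.

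**Figure D5:**
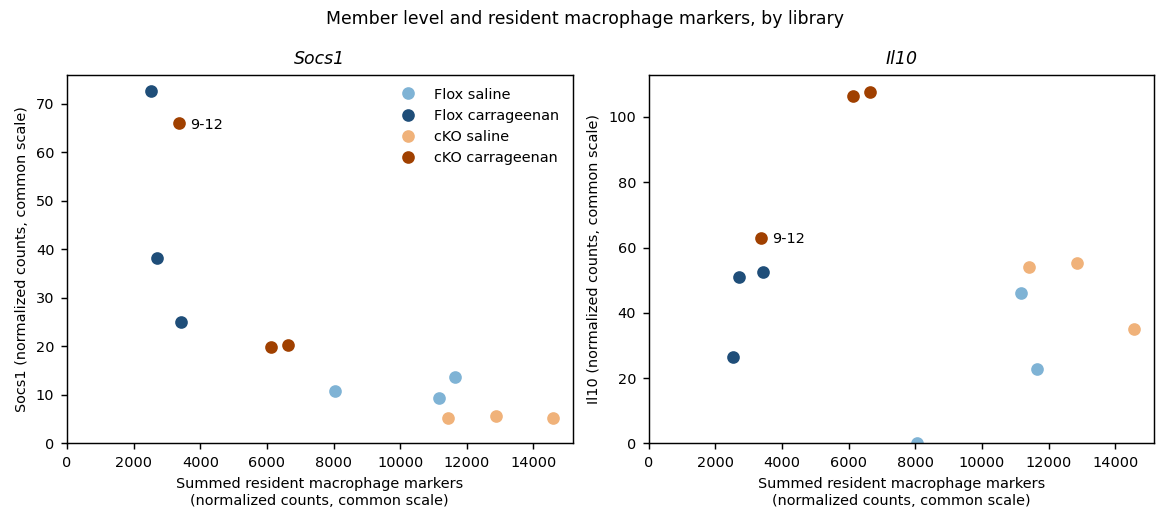
Normalized counts of Socs1 (left) and Il10 (right) against the summed level of 10 resident macrophage markers in each of the 12 libraries, on the common scale and coloured by group. The cKO carrageenan 9-12 library (labelled) lies at 3376 on the marker axis, near the Flox carrageenan libraries at 2534 to 3431.

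For the 7 members with a mean of at least 20, the genes with the most similar pattern were taken by Pearson correlation of log2 values over the 12 libraries, among 5429 genes. Cd274 was most like Slfn8 (r = 0.98), Ppp1r3b (r = 0.98) and Sp110 (r = 0.98). Socs1 was most like Ptprj (r = 0.97), Malt1 (r = 0.95) and Psd4 (r = 0.95). For Lgals9 these genes were Sppl2a (r = 0.92), Irf9 (r = 0.91) and Csrnp1 (r = 0.90), and for Ebi3 Eif2ak2 (r = 0.93), Itgal (r = 0.93) and Dusp2 (r = 0.90). Il10 was most like Dgka (r = 0.97), Nifk (r = 0.97) and Ruvbl2 (r = 0.97), and Il10ra like Sec61a1 (r = 0.97), Rac2 (r = 0.96) and Lst1 (r = 0.96). For Il10rb they were Spcs2 (r = 0.92), Prkar1a (r = 0.89) and Tspan3 (r = 0.89). These values are descriptions, since the 12 points share treatment, depth and library, and the shallowest library holds the lowest value of both Il10 and Il10ra. Among the members, the neighbours Cd274 and Pdcd1lg2 on chromosome 19 had r = 0.59, the subunits Il27 and Ebi3 r = 0.0057, and Ebi3 and Socs1 r = 0.74.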

How the data were processed

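Paw cells sorted as CD45+/CD11b+/Ly6G- were pooled from 3 or 4 mice (12 libraries). The 3' mRNA kit carries unique molecular identifiers, per the labels' protocols. The submitters' processing notes name cutadapt, STAR and GRCm38; the counter, its annotation and its use of strand are not stated. Normalized counts, the deposited signal, are reads divided by 1 factor per library, computed separately for saline and carrageenan. The authors' tables of cKO over Flox hold, per the file headers, log2 fold changes with standard errors. They also hold p-values and adjusted p-values, per the file headers, and a test statistic (a score, deposited but not used).

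Whole reads were recovered: 100% of values were whole multiples of 1 step per library (tolerance 0.001). The 121 entries that are not genes (0.170 to 2.23% of reads) were left out, and 55141 gene IDs had a symbol (GENCODE vM21). Carrageenan and saline libraries were put on a common scale by medians of ratios over 6501 genes. The test was limma 3.58.1 (mean trend) on log2(value + 1), which understates changes of low genes but can enlarge them where a shallow library has no read. Genes needed a value of 5 in at least 3 libraries, and p-values were adjusted over all genes tested (Benjamini-Hochberg). Alternatives on whole reads used edgeR 4.0.16 (quasi-likelihood) and DESeq2 1.42.0 in R 4.3.3; DESeq2 left 6742 genes without an adjusted p in cKO against Flox in carrageenan. The code of the limma and edgeR fits was also run on simulated data with the same spread for every gene. That run does not measure how well the fits do on these libraries. Exact counting intervals (95%) cover counting error only.

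Libraries of a group differed from each other beyond sampling noise (chi-square over its degrees of freedom 2.71 to 16.3). Pools of the same mouse numbers deviated together from their group means in cKO (r = 0.248, 0.529 and 0.615 over 5522 genes). A fit that pairs pools by these numbers was therefore run as an alternative. Pools of different numbers in cKO gave -0.544 to 0.337, and the highest of these, saline 5-8 with carrageenan 1-4, was above the matched 1-4 pair. In Flox the matched pools did not deviate together (-0.02 to 0.09). The tests reported carry no block, and the fit with the block is given where it changed a call. The labels do not say whether the same mice were used.

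Named are all 9 members; Fabp5 and Lyz2; from each list up to 4 genes past the threshold with the smallest p, or the first by p where none passed; and the 3 genes most like a member. Ifng and Pdcd1, the marker genes, the genes listed beside counts of 6 or fewer, and the other genotype's value of a named gene were added after the values were seen. A few list genes are counted but not reported here by name or drawn. The members and lists were chosen with earlier results of these data known.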

Additional observations from a re-analysis of the deposited data

How the results depend on the processing

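Carrageenan against saline in Flox called 1 member, and 2 with a pseudocount of 5, 2 with edgeR, 3 with DESeq2, 3 without the 2 libraries that stand apart (a setting chosen after seeing the data) and 1 to 3 leaving out each library. In cKO the 2 members called became 1 with a pseudocount of 0.5, 0 with no filter, 4 with edgeR and 4 with DESeq2 (Pdcd1lg2 among both), 0 on the deposited values, 3 in a fit of 2 groups, 1 with the replicate block, 1 without those 2 libraries and 0 to 2 leaving out each library. Genes called in Flox (737) became 418 with no filter, 279 in a fit of 2 groups and 352 to 1081 leaving out each library. Genes called in cKO (273) became 142 with no filter, 721 with edgeR, 911 with DESeq2, 721 in a fit of 2 groups and 84 to 521 leaving out each library. The share of them that rose was 79.1%, and 68.4% with edgeR, 61.7% with DESeq2 and 56.9% in a fit of 2 groups. The deposited scale moved the median of all genes by -0.11 (log2) in cKO. Between genotypes DESeq2 called 22 genes in saline and 7 in carrageenan, and leaving out each library gave 0 to 420 in carrageenan, the highest without cKO carrageenan 9-12, none of them a member. In carrageenan DESeq2 gave no adjusted p for Il27, Ebi3, Pdcd1lg2 and Socs1. With the replicate block, which changed no call of a member but Socs1, 746 genes were called in Flox, 267 in cKO and 0 in the interaction. Signs turned for values that were not called. Il10ra in cKO was -0.0630 without the 2 libraries and -0.0630 to 0.33 leaving out each library. Between genotypes, leaving out each library gave -0.11 to 0.93 for Il10ra and -0.22 to 0.48 for Lgals9 in saline, and -0.23 to 0.50 for Lgals9 and -0.12 to 1.62 for Pdcd1lg2 in carrageenan, where Lgals9 was -0.0712 with edgeR and -0.0526 with DESeq2. In the interaction Il10 was 0.34 with edgeR, 0.28 with DESeq2 and 0.83 without the 2 libraries, Pdcd1lg2 -0.42 with edgeR, Il27 0.0999 with a pseudocount of 5 and 0.83 without the 2 libraries, and Socs1 -0.0394 without them. Leaving out each library gave -2.26 to 0.58 for Il10, -1.15 to 0.55 for Il27, -0.59 to 1.15 for Pdcd1lg2, -0.0896 to 0.86 for Socs1, -0.43 to 0.31 for Lgals9 and -0.30 to 0.0364 for Il10rb. The causes were not tested. The depth of the Flox libraries limits Il27 and Pdcd1lg2, with 2 and 1 reads in Flox saline.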
